A study of Mus musculus with 6 samples.

Results

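Ferroptosis is a form of cell death in which peroxides of membrane phospholipids build up in the presence of iron. The 10 genes described here act directly on those lipids: Gpx4 repairs lipid peroxides, Aifm2, Dhodh, Gch1 and Vkorc1l1 feed routes that trap lipid radicals, and Acsl4, Acsl3, Lpcat3, Mboat1 and Mboat2 set which fatty acids the phospholipids carry. They were taken by name for these roles, with earlier results of these data known, and all 10 had a row among the 16426 genes of the table. After conditioned medium (CM) from Tdo2high matrix fibroblasts (MFs), none of the 8 members expressed well enough to test passed the threshold. Of all tested genes, 7.41% passed. Gpx4 (1.07-fold) and Lpcat3 (1.08-fold) were the members nearest to the threshold.

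RNA came from 4T1-LM3 cells, a murine mammary carcinoma line. A total of 3 libraries were from cells given control CM and 3 from cells given CM of Tdo2high MFs, so all 6 libraries share the line and an exposure to conditioned medium. The labels give neither the cell source of the control CM, nor the length of treatment, nor whether the libraries of a group are separate cultures, so p-values measure the spread between these libraries, which may be technical. No group is labelled as given kynurenine alone or medium of fibroblasts low in Tdo2, the gene of tryptophan 2,3-dioxygenase, so the part of Tdo2 cannot be told apart from other differences between the media.

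Polyunsaturated acyl chains oxidise far more readily than monounsaturated ones. Acsl4 activates polyunsaturated fatty acids and Lpcat3 inserts them into phospholipids, which makes membranes more oxidisable. Acsl3 activates monounsaturated fatty acids, and Mboat1 and Mboat2 favour such chains in phospholipids, which lowers it. Gpx4 reduces phospholipid hydroperoxides with glutathione. Independently of glutathione, Aifm2 (the protein is also called FSP1) reduces coenzyme Q at the plasma membrane, Dhodh reduces it in mitochondria, Gch1 starts the synthesis of tetrahydrobiopterin, and Vkorc1l1 reduces vitamin K.

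The promoters of Gpx4 and Lpcat3 are shown, the members whose 2 groups of libraries did not overlap. The groups did not overlap in 29.2% of all tested genes either, and neither member passed the threshold. Both windows are from RefSeq on GRCm38.p6, plus strand, from 250 bases before to 50 after a start site. Capitals mark the CCAAT box (CCAAT) and the GC box (GGGCGG), searched on both strands. The Gpx4 window, chr10:80053315-80053614, is the second of 4 listed for that gene, and the Lpcat3 window is chr6:124662854-124663153.
Gpx4: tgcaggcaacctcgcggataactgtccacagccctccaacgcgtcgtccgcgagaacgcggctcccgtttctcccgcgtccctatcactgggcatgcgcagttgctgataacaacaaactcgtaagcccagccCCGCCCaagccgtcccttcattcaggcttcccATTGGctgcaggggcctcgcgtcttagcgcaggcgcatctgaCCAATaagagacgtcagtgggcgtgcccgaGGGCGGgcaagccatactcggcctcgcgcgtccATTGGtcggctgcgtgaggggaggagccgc
Lpcat3: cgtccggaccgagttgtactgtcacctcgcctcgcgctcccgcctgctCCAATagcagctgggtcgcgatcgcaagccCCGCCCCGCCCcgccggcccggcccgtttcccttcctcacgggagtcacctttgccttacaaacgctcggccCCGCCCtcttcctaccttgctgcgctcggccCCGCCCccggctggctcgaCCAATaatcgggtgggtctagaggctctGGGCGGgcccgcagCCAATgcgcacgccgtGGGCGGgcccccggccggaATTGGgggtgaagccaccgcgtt
The Gpx4 window printed here held 3 matches to CCAAT and 2 to GGGCGG, and the Lpcat3 window 4 and 6. For Gpx4 the counts depended on the start site. They were 1 and 0 in window 1, 3 and 2 in window 3, and 0 and 1 in window 4. In all, 9 members had a window in the RefSeq table, 12 windows together. CCAAT was found in 9 of the 12 and in 37.4% of all 32851 windows, and GGGCGG in 10 of the 12 and in 35.7% of all. Gpx4 supplied 4 of the 12, and its windows 2 and 3 share bases, so the same matches were counted in both. By gene, CCAAT was in 7 of the 9 members and GGGCGG in 8. The shares of all windows were taken whatever the level of the gene. The 2 motifs stand directly next to each other in the windows of Acsl3 and Mboat1, and matches to GGGCGG that share bases were counted separately. The antioxidant response element core TGACNNNGC, the letters that NRF2 binds, was in none of the 12 windows, nor in that of Nqo1, against 12.4% of all windows. These matches describe the letters of short windows and show nothing of binding.

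The level of each gene is given in FPKM, fragments scaled by transcript length and library size, which can be compared between genes. Over all 6 libraries the order was Gpx4, Acsl4, Acsl3, Lpcat3, Aifm2, Vkorc1l1, Mboat1, Dhodh, Gch1 and Mboat2. The ranges of neighbours in this order did not overlap, so it was the same in every library. Gpx4 averaged 365 FPKM over the 6 libraries, Acsl4 91.8, Acsl3 36.97 and Mboat2 0.0533. With control CM, Gpx4 lay at the 98.4th percentile of the 10804 tested genes, Acsl4 at the 92.98th, Vkorc1l1 at the 47.3rd and Dhodh at the 17.9th.

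**Figure D1:**
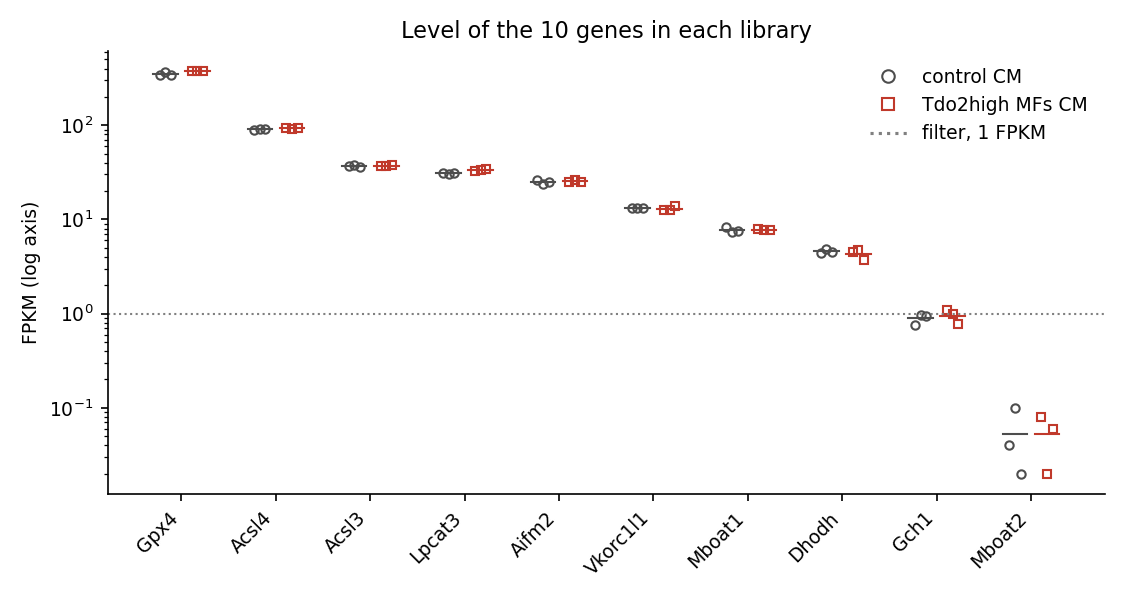
FPKM (log axis) of the 10 genes in each library, with control CM as circles and Tdo2high MFs CM as squares; bars are group means (n = 3) and the dotted line is the filter of 1 FPKM. The level of Gpx4 is near 365 FPKM and that of Mboat2 near 0.0533 FPKM, and within each gene the groups lie close together.

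Genes were tested where 3 or more libraries reached 1 FPKM, which held for 8 of the 10 members. The comparison asked which genes of the carcinoma cells differ after the fibroblast medium. By limma on log2(FPKM + 1), 0 of the 8 tested members passed an adjusted p of 0.05, beside 7.41% of all tested genes. At an unadjusted p under 0.05 there were 2 of 8, Gpx4 and Lpcat3, beside 23.7% of all genes. The same 2 had groups that did not overlap, beside 29.2% of all tested genes. The median log2 fold change of the 8 was 0.0097, with 4 above and 4 below 0, and that of all tested genes was -0.01. Both shares lay near those of all genes.

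**Figure D2:**
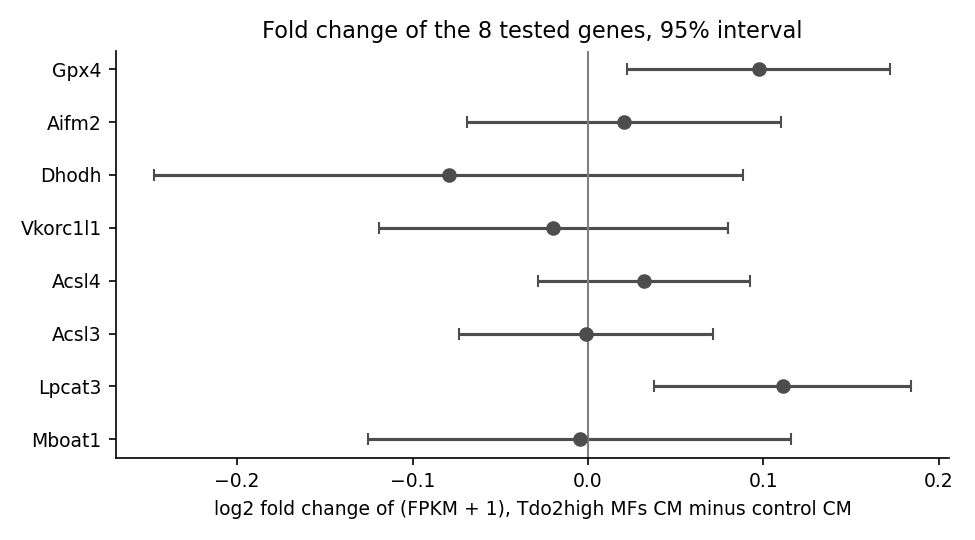
Log2 fold change of (FPKM + 1), Tdo2high MFs CM minus control CM, of the 8 tested genes; bars are 95% intervals of the limma fit (n = 3 per group). Gpx4 and Lpcat3 have intervals above 0, and those of the other 6 genes include 0.

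Gpx4 had 344, 370 and 343 FPKM in control CM replicates 1 to 3, and 376, 377 and 377 FPKM in the libraries given Tdo2high MFs CM. The groups did not overlap, but control replicate 2 lay nearer to the lowest fibroblast library than to either of the other controls. The control libraries varied by 4.30% (SD relative to the mean) and the fibroblast libraries by 0.148%. The log2 fold change was 0.10 ± 0.03 (SE; 95% interval 0.02 to 0.17), or 1.07-fold, with adjusted p = 0.114 by limma. Without control CM replicate 2 the log2 fold change was 0.13 and the adjusted p = 0.0219. Without any other 1 library the adjusted p was 0.206 to 0.273 by limma. The 95% interval included 0 without control CM replicate 1 or 3. With no filter on low values the adjusted p was 0.210, and with no intensity trend 0.201. Control CM replicate 2 also had the highest sum of FPKM, 447415, where the other 5 had 438603 to 445209. With every library rescaled to the same sum (the TPM scale), the log2 fold change of Gpx4 was 0.09, with adjusted p = 0.0999. Gpx4 also passed after the values had been adjusted per library for the genes' GC content and length (0.12, adjusted p = 0.0201). RefSeq lists 2 pseudogenes of this gene, Gpx4-ps1 and Gpx4-ps2, which can share its reads.

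Gpx4 is a selenoprotein, so its synthesis needs the machinery that inserts selenocysteine. Of 10 tested genes of that machinery or of selenium supply (Lrp8 and Scly), 0 passed by limma, beside 7.41% of all tested genes. At an unadjusted p under 0.05 there were 3 (Sephs1, Pstk and Lrp8, all above 0), beside 23.7% of all. Of the 10, 7 had a log2 fold change above 0 and 3 below, with a median of 0.03 and a range from -0.10 to 0.19. The most abundant were Scly, a lyase that frees selenium from selenocysteine, with a mean of 41.8 ± 0.799 FPKM in the control and 43.2 ± 1.90 in the fibroblast medium (SD, n = 3 per group), and Trnau1ap, which binds the selenocysteine transfer RNA, at 38.8 ± 1.10 and 38.1 ± 0.791. Among 4 tested peroxidases and partners, 1 rose (Prdx6), beside 3.35% of all tested genes. The median of the 4 was 0.02. Prdx6, a peroxiredoxin that also reduces phospholipid hydroperoxides, had 173, 177 and 173 FPKM with control CM and 189, 208 and 194 with Tdo2high MFs CM, with no overlap. Its log2 fold change was 0.17 ± 0.04 (SE), with adjusted p = 0.0203 by limma. The call of Prdx6 ended without control CM replicate 1, control CM replicate 3 or Tdo2high MFs CM replicate 2 (adjusted p up to 0.0642 by limma), with no filter on low values (0.0711) and with no intensity trend (0.0669). Its pseudogene Prdx6-ps2 can share reads. Gpx1, the main cytosolic glutathione peroxidase, had 96.6 ± 2.80 and 92.1 ± 1.19 FPKM (adjusted p = 0.197), and Gpx8, an enzyme of the endoplasmic reticulum, 56.0 ± 3.33 and 60.3 ± 0.678 (adjusted p = 0.147).

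Of the 4 genes of the radical-trapping routes, 3 were tested, and the groups overlapped in each. Aifm2 had 26.26, 23.77 and 24.99 FPKM with control CM and 25.12, 25.95 and 25.02 with Tdo2high MFs CM. The highest and the lowest value of Aifm2 were both in control libraries. Its fold change was 1.01, with a 95% interval of 0.953 to 1.08. Vkorc1l1 had 13.3, 13.1 and 13.1 FPKM with control CM and 12.6, 12.5 and 13.8 with Tdo2high MFs CM. The fibroblast libraries lay on both sides of the controls (fold change 0.986, 95% interval 0.921 to 1.06). Dhodh had 4.41, 4.87 and 4.53 FPKM with control CM and 4.47, 4.73 and 3.75 with Tdo2high MFs CM. One fibroblast library, replicate 3, stood below the other 5 for Dhodh (fold change 0.946, 95% interval 0.842 to 1.06), and without it the log2 fold change was -0.00038. By limma the adjusted p was 0.800 for Aifm2, 0.831 for Vkorc1l1 and 0.567 for Dhodh.

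Gch1 had 0.76, 0.97 and 0.94 FPKM with control CM and 1.10, 0.98 and 0.77 with Tdo2high MFs CM, below the filter. In a fit with no filter on low values, its log2 fold change was 0.04 (95% interval -0.14 to 0.23, adjusted p = 0.820 by limma). Gchfr, whose protein binds the Gch1 enzyme and mediates its feedback inhibition, was far more abundant at the RNA level. It had 37.7, 35.3 and 34.5 FPKM with control CM and 39.8, 39.8 and 41.0 with Tdo2high MFs CM, with no overlap. Gchfr rose by a log2 fold change of 0.16 ± 0.04 (SE), with adjusted p = 0.0271 by limma. It was the 1 of 6 tested genes of tetrahydrobiopterin synthesis and recycling that passed, beside 7.41% of all tested genes. Its call ended without any 1 library other than control CM replicate 1 (adjusted p up to 0.0945 by limma), with no filter on low values (0.0734), with no intensity trend (0.0703) and in both fits with a replicate block (0.0520 and 0.0786). The other 5 did not pass, among them Qdpr, which regenerates tetrahydrobiopterin, at 32.6 ± 2.30 and 32.8 ± 1.199 FPKM, and Spr, the last enzyme of its synthesis, at 26.2 ± 0.517 and 26.1 ± 1.42. The median of the 6 was 0.04.

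Aifm2 and Dhodh both act on coenzyme Q. Of 14 genes for its synthesis and transport, all tested, 0 passed by limma, beside 7.41% of all tested genes. At an unadjusted p under 0.05 there were 3 (Coq5, Coq8b and Coq10a), beside 23.7% of all. Of these 14, 7 had a log2 fold change above 0 and 7 below, with a median of -0.01 and a range from -0.20 to 0.17. Stard7, a lipid carrier that moves coenzyme Q out of mitochondria, had 22.7 ± 0.868 and 22.4 ± 1.01 FPKM, and Coq2, the prenyltransferase of the pathway, 20.4 ± 0.670 and 20.8 ± 0.325. In the vitamin K cycle the median of the 4 tested genes was -0.0016. Of these 4, 1 rose, beside 3.35% of all tested genes. This was Nqo1, a quinone reductase that can reduce both quinones, which had 12.6, 13.6 and 12.9 FPKM in the control and 37.8, 36.8 and 37.2 in the fibroblast medium (adjusted p = 2.84e-08 by limma). Vkorc1, the paralog of Vkorc1l1, had 30.05 ± 2.41 and 30.01 ± 1.24 FPKM (adjusted p = 0.997).

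Of the 5 genes that set acyl composition, 4 were tested. Acsl4 had 89.4, 90.8 and 92.0 FPKM with control CM and 93.8, 91.1 and 93.6 with Tdo2high MFs CM, so the groups overlapped. Its fold change was 1.02 (95% interval 0.981 to 1.07, adjusted p = 0.516 by limma). Acsl3 had 37.4, 37.8 and 35.8 FPKM with control CM and 36.6, 36.5 and 37.8 with Tdo2high MFs CM. Its groups covered nearly the same range, with a fold change of 0.999 (95% interval 0.950 to 1.05, adjusted p = 0.986). The ratio of Acsl4 to Acsl3 within a library was 2.46 ± 0.0989 with control CM and 2.51 ± 0.0485 with Tdo2high MFs CM (SD, n = 3 per group). Across the 6 libraries it ran from 2.39 to 2.57, and the groups overlapped.

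Lpcat3 had 31.1, 30.7 and 31.1 FPKM in control CM replicates 1 to 3, and 32.3, 33.8 and 34.4 FPKM with Tdo2high MFs CM. Every fibroblast library was above every control library. The log2 fold change of Lpcat3 was 0.11 ± 0.03 (SE; 95% interval 0.04 to 0.18), or 1.08-fold, with adjusted p = 0.0714 by limma. It passed when libraries were scaled by the median of ratios (0.12, adjusted p = 0.0494) and after the GC and length adjustment (0.12, adjusted p = 0.0447). With a replicate block added to that adjustment it did not pass (0.0735). Nor did it without any 1 library (adjusted p = 0.0590 to 0.211 by limma), with no intensity trend (0.126) or on the TPM scale (0.111). Lpcat3 shares 334 exon bases with Emg1, a gene of the opposite strand at 67.4 to 77.3 FPKM, and whether reads were counted by strand is not given in the sources used here. Emg1 had a log2 fold change of -0.09 (adjusted p = 0.179).

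Mboat1 had 8.41, 7.38 and 7.53 FPKM with control CM and 7.87, 7.64 and 7.69 with Tdo2high MFs CM. The fibroblast libraries lay within the range of the controls, with a fold change of 0.997 (95% interval 0.917 to 1.08, adjusted p = 0.970 by limma). Mboat2 had 0.04, 0.10 and 0.02 FPKM with control CM and 0.08, 0.02 and 0.06 with Tdo2high MFs CM, far below the filter, where rounding to 0.01 FPKM is a large part of each value. No fold change is given for it. Per length, the RNA level of Mboat1 was far above that of Mboat2 in each library.

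**Figure D3:**
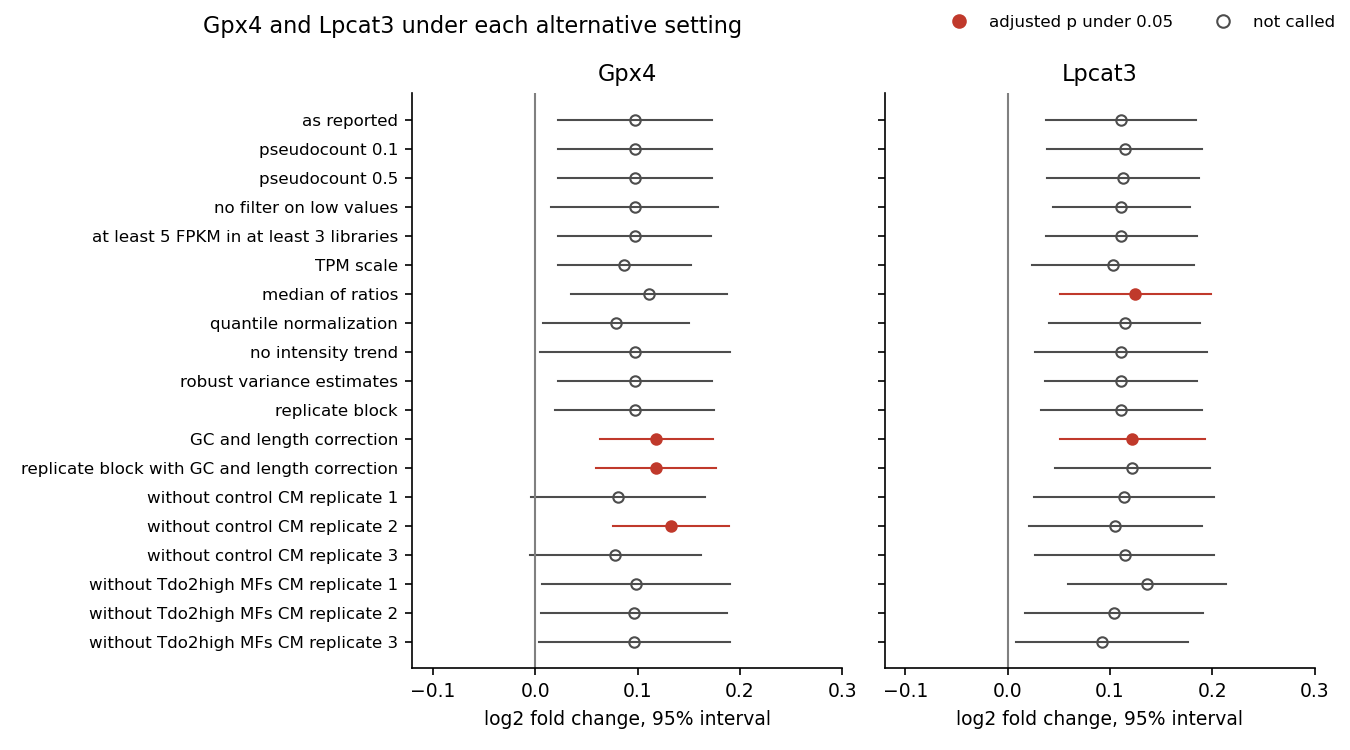
Log2 fold change of Gpx4 (left) and Lpcat3 (right) with 95% intervals, as reported and under each alternative setting; filled points have an adjusted p under 0.05 by limma. All point estimates lie above 0, from 0.08 to 0.13 for Gpx4 and from 0.09 to 0.14 for Lpcat3, and 3 of the 18 alternatives for Gpx4 and 2 for Lpcat3 are filled.

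The direction of Acsl3, Mboat1, Aifm2 and Vkorc1l1 differed between settings, so none is stated for them. Acsl4 stayed between 0.02 and 0.05 on the log2 scale and Dhodh between -0.14 and -0.00038 under the alternatives, and neither passed in any. Exons of Acsl3 share 244 bases with Utp14b on the same strand (3.85 to 5.01 FPKM), and those of Aifm2 share 233 bases with Macroh2a2 on the opposite strand (0.39 to 0.96 FPKM).

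The members sit among larger families, for which 10 lists of related genes were used. Together these lists hold 74 tested genes, of which 7 rose (9.46%, beside 3.35% of all tested genes) and 4 fell (5.41%, beside 4.06%). Their median log2 fold change was 0.0013. Groups did not overlap in 30 of the 74 (40.5%, beside 29.2%). The lists were chosen with earlier results of these data known. They hold Nqo1, which had the lowest p of all tested genes by limma. No conclusion about the families is drawn from these shares. Changed genes were found in the lists of desaturases, ether lipid synthesis, acyltransferases and lipid oxidation enzymes, beside Prdx6, Gchfr and Nqo1.

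Of 9 tested desaturases and elongases, 2 rose (beside 3.35% of all tested genes) and 1 fell (beside 4.06%). The median of the 9 was 0.06. Fads2, the desaturase that starts the conversion of essential fatty acids to longer polyunsaturated ones, had 22.5, 23.3 and 22.3 FPKM with control CM and 27.2, 27.3 and 26.7 with Tdo2high MFs CM. The groups were well apart, with a log2 fold change of 0.24 ± 0.03 (SE; adjusted p = 0.00217 by limma). Its neighbour Fads3 fell from 6.35 ± 0.205 to 5.32 ± 0.115 FPKM (adjusted p = 0.0281), and Scd1, which makes monounsaturated fatty acids, rose from 50.0 ± 0.612 to 54.1 ± 0.413 (adjusted p = 0.0362). The calls of Fads3 and Scd1 ended without any 1 of the 6 libraries, with adjusted p up to 0.0921 and 0.110 by limma. That of Fads3 also ended with no filter on low values (0.0713) and with a replicate block plus the GC and length adjustment (0.0663). That of Scd1 also ended on the TPM scale (0.0651), with no intensity trend (0.0939) and with a replicate block (0.0699). Scd2, the most abundant of these enzymes, had 377 ± 4.44 and 384 ± 6.01 FPKM (adjusted p = 0.588). Elovl5, an elongase of polyunsaturated chains, had 54.0 ± 1.16 and 55.4 ± 1.23 FPKM (adjusted p = 0.488).

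Ether lipids, among them plasmalogens, carry polyunsaturated chains and are made from fatty alcohols in peroxisomes. The list for their synthesis had 7 tested genes, 2 of them (Pex3 and Pex10) genes of the peroxisome itself. Of the 7, 2 fell (beside 4.06% of all tested genes) and 1 rose (beside 3.35%). The median of the 7 was -0.05. Tmem189, the desaturase that forms the vinyl ether bond of plasmalogens, had 57.6, 56.7 and 58.1 FPKM with control CM and 52.6, 50.4 and 50.5 with Tdo2high MFs CM. All fibroblast libraries were below all controls, with a log2 fold change of -0.16 ± 0.03 (SE; adjusted p = 0.00987 by limma). Far1, the reductase that supplies the fatty alcohols, fell from 45.9 ± 1.78 to 41.4 ± 0.471 FPKM (adjusted p = 0.0306). Its paralog Far2, at a far lower level, rose from 1.83 ± 0.160 to 2.56 ± 0.329 FPKM (adjusted p = 0.0450). The call of Far1 ended without any 1 library other than control CM replicate 3, and that of Far2 without any 1 other than Tdo2high MFs CM replicate 2, with adjusted p up to 0.0990 and 0.137 by limma. Both also ended with no filter on low values (0.0692 and 0.115) and with no intensity trend (0.0789 and 0.0503). That of Far1 ended with a replicate block plus the GC and length adjustment (0.0622), and that of Far2 on the TPM scale (0.0502). RefSeq lists antisense partners of both, Far1os and Far2os1, whose reads cannot be told apart without strand. Gnpat and Agps, the peroxisomal enzymes of the first steps, had log2 fold changes of -0.08 and 0.04 and did not pass.

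**Figure D4:**
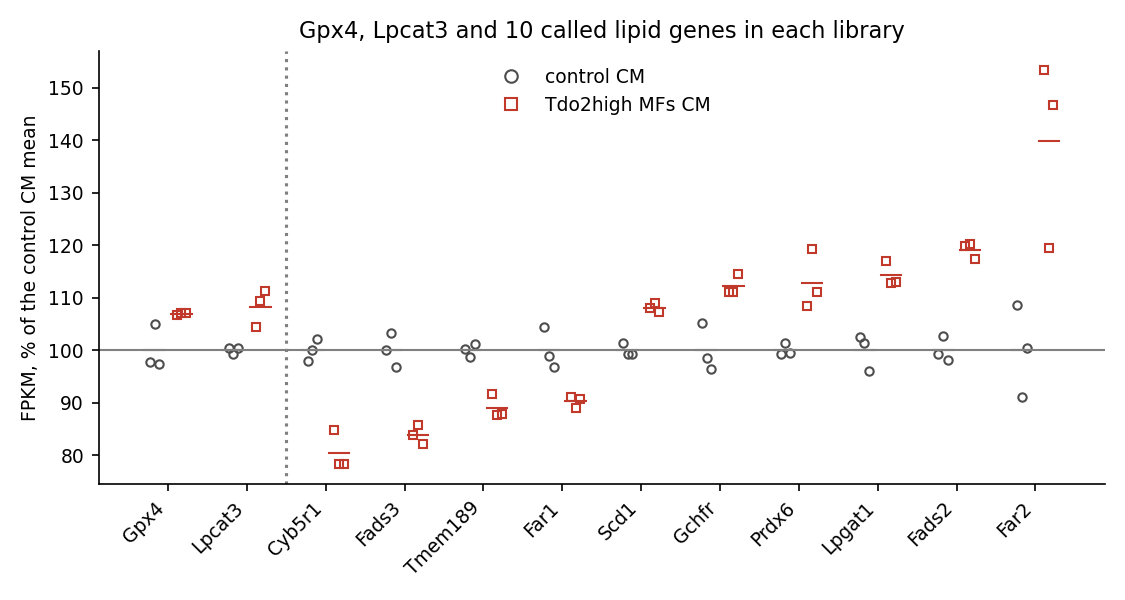
FPKM of Gpx4, Lpcat3 and 10 called genes of the lists in each library, as a percentage of the gene's mean with control CM (circles, control CM; squares, Tdo2high MFs CM; bars, group means, n = 3). Gpx4 lies at 107% and Lpcat3 at 104% to 111% with Tdo2high MFs CM, while Cyb5r1 lies at 78.3% to 84.8% and Fads2 at 117% to 120%; Nqo1 is left out because it is far off this scale.

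Cyb5r1 had the largest fall in the lists. It encodes a reductase which, with the P450 reductase Por, passes electrons to oxygen and can start lipid peroxidation. Cyb5r1 had 44.99, 45.89 and 46.89 FPKM with control CM and 38.94, 35.95 and 35.99 with Tdo2high MFs CM, with no overlap. The log2 fold change was -0.31 ± 0.04 (SE; adjusted p = 0.00124 by limma). Por had 122 ± 2.99 and 122 ± 0.303 FPKM (adjusted p = 0.965) and Pebp1, a partner of lipoxygenases, 228 ± 14.5 and 221 ± 5.18 (adjusted p = 0.585). Of the lipoxygenase genes with values, Alox12, Alox12b, Alox15 and Aloxe3 stayed at or below 0.23 FPKM in every library. Cyb5r1 was the 1 of 4 tested genes of this list that passed, beside 7.41% of all tested genes. The median of the 4 was -0.02.

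Among 11 tested relatives of Lpcat3 and the Mboat genes, 1 rose, beside 3.35% of all tested genes. The median of the 11 was -0.02. Lpgat1, an acyltransferase of the endoplasmic reticulum, had 24.6, 24.4 and 23.1 FPKM with control CM and 28.1, 27.1 and 27.1 with Tdo2high MFs CM, with no overlap (log2 fold change 0.18 ± 0.04 SE, adjusted p = 0.0146 by limma). Its call ended without Tdo2high MFs CM replicate 1 (adjusted p = 0.0532). Agpat1 and Agpat3, which acylate lysophosphatidic acid and related lipids, had log2 fold changes of -0.14 and -0.05 and did not pass. Of 5 tested relatives of Acsl3 and Acsl4, 0 passed by limma, beside 7.41% of all tested genes. At an unadjusted p under 0.05 there was 1, Slc27a1, beside 23.7% of all. Acsl5 had 57.3 ± 0.722 and 59.1 ± 0.236 FPKM, and Slc27a1, a fatty acid transport protein, 39.1 ± 0.737 and 35.6 ± 2.47 (adjusted p = 0.339 and 0.111). The median of the 5 was -0.04.

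**Figure D5:**
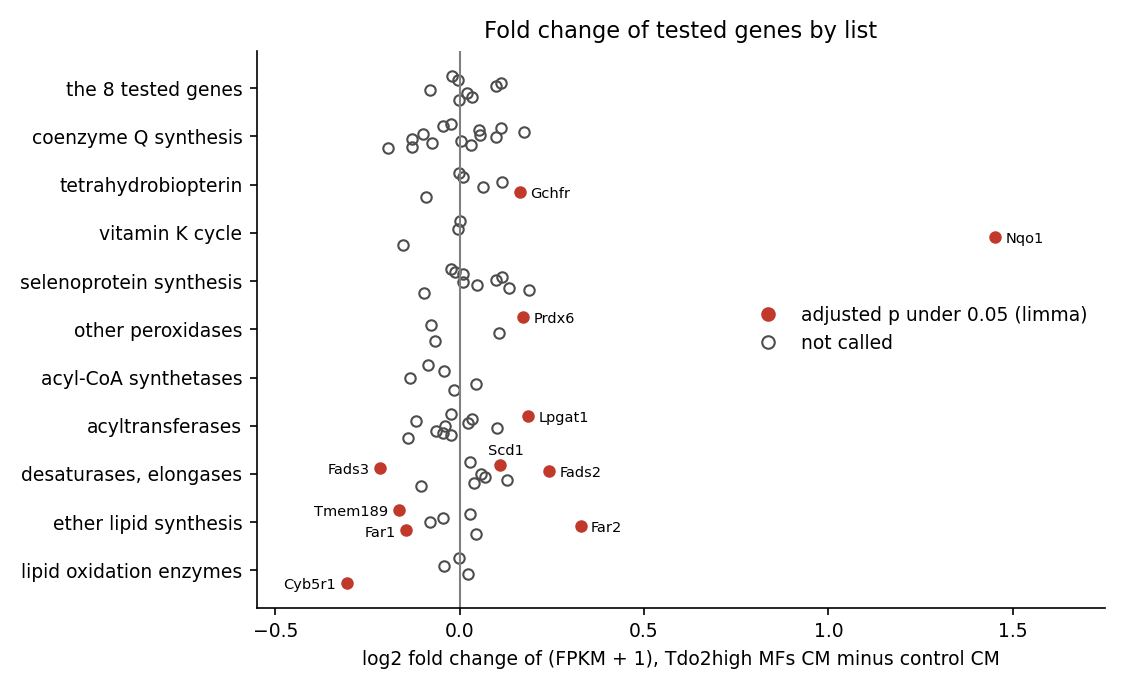
Log2 fold change of (FPKM + 1), Tdo2high MFs CM minus control CM, for the 8 tested members and the 74 tested genes of 10 related lists; filled points passed an adjusted p of 0.05 by limma and are named. No member is filled, 7 list genes are filled above 0 (Nqo1 at 1.45 farthest out) and 4 below 0 (Cyb5r1 at -0.31 lowest).

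The calls of Nqo1, Fads2, Tmem189 and Cyb5r1 held under each of the 18 alternatives. Among all tested genes, 362 were called higher and 439 lower, against 455 and 367 when scaled by the median of ratios and 454 and 364 after the GC and length adjustment.

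Markers of other cell types were read in the same libraries. In bulk RNA, fewer cells of a type and less RNA per cell cannot be told apart. Of 9 fibroblast markers with values, 5 were tested, 2 rose (beside 3.35% of all tested genes) and 2 fell (beside 4.06%). Npnt rose from a mean of 31.2 to 43.2 FPKM and Pdgfra from 41.9 to 47.3. Dcn fell from 15.5 to 10.9 FPKM and Fap from 4.00 to 3.04, and Pdgfrb did not pass. The summed level of the 9 markers was 114 to 119 FPKM with control CM and 125 to 130 with Tdo2high MFs CM. The collagen genes Col1a1 and Col1a2 did not exceed 0.12 and 0.01 FPKM. Of 6 myeloid markers 2 were tested, Cd14 and S100a8, and S100a8 rose, beside 3.35% of all tested genes. The 6 had sums of 8.59 to 10.02 and 13.6 to 15.1 FPKM, while Csf1r, Itgam, Laptm5 and Lyz2 were at most 0.10 FPKM. The 3 lymphocyte markers summed to at most 0.22 FPKM. Of 6 endothelial markers 2 were tested and 0 passed by limma (0 also at an unadjusted p under 0.05), with sums of 63.4 to 64.0 and 61.0 to 62.0 FPKM, and Pecam1 and Cdh5 did not exceed 0.11 FPKM. Of 8 mammary epithelial markers the keratins Krt8 and Krt18 were abundant at 272 ± 9.16 and 356 ± 11.3 FPKM with control CM, but the epithelial surface genes Epcam and Cdh1 did not exceed 0.11 and 0.02 FPKM. The part of these markers in the results was not tested.

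On GRCm38 the tested members lie at chr10:80047166-80056439 (Gpx4), chr10:61715263-61739260 (Aifm2), chr8:109593244-109608699 (Dhodh), chr5:129942109-129986692 (Vkorc1l1), chrX:142317993-142390802 (Acsl4), chr1:78657825-78707743 (Acsl3), chr6:124663094-124704716 (Lpcat3) and chr13:30136451-30246694 (Mboat1). RefSeq annotates each as a protein-coding gene, and the FPKM are values of whole genes that do not separate transcripts.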

How the data were processed

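PolyA RNA was sequenced in 6 libraries, 3 per group, grouped by their titles. Per the file headers the authors deposited FPKM for each gene, rounded to 2 decimals; the build was GRCm38 per the submitters' processing notes. How reads were aligned and counted is not given in the sources used here. FPKM corrects for transcript length and library size, so a change in very abundant genes shifts all others. Low values were checked for steps of whole reads. Over 7441 values up to 0.6 FPKM, the ratio to the smallest value of the gene lay on average 0.25 from a whole number. An even spread gives 0.25. The check left out genes with the lowest values and used rounded values, so it cannot exclude such steps. Mboat2, for example, had only multiples of 0.02 FPKM. The depth was not derived from these values, and the number of libraries limits the precision.

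Values were tested as log2(FPKM + 1), which understates changes of low genes, by limma 3.58.1 in R 4.3.3 with an intensity trend, two-sided, adjusted by Benjamini-Hochberg over all 10804 tested genes (1 FPKM reached in 3 or more libraries). An exact permutation test of 3 against 3 cannot go below 0.1. On simulated data for this comparison and its 10804 genes the test recovered 63.9% of genes changed 1.2-fold and 95.8% at 1.5-fold, with 4.42% of calls false. The changed genes were all raised and no smaller fold was simulated. The simulation therefore does not cover changes as small as those of Gpx4 and Lpcat3 (1.07- and 1.08-fold). Members and lists were chosen with earlier results of these data known. All members are named, and in each list the called genes (at most 4, by size of change) and, of those not called, the 2 with the highest level. A gene that this rule chose is not reported here. Other genes, Emg1, Utp14b and Macroh2a2 among them, were named after their values were seen. As alternatives the pseudocount, the filter, the scaling and the variance model were changed, a replicate block or a spline adjustment for GC content and length (GENCODE M21 transcripts, 10633 genes) was added, and each library was left out. Figures were drawn with matplotlib 3.10.9.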

Additional observations from a re-analysis of the deposited data

How the results depend on the processing

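The number of members called lower was 0 under all alternatives. The number called higher was 0, but 1 with the median of ratios (Lpcat3), 2 with the GC and length adjustment (Gpx4 and Lpcat3), 1 with that adjustment and a replicate block (Gpx4), and 0 to 1 without 1 library. With no filter on low values 199 genes were called higher and 195 lower, and 4 and 2 of the related lists. With no intensity trend 277 genes were called lower, and 4 list genes higher. With the replicate block and the GC and length adjustment 252 genes and 2 list genes were called lower. Without 1 library the counts were 209 to 293 genes higher and 186 to 266 lower, and 3 to 5 and 2 to 3 list genes. The cause of these differences was not tested. The replicate number as a block gave 296 genes higher and 326 lower and no called member. Same-numbered libraries did not deviate together (r = -0.02, -0.03 and 0.02 across genes), and those of different number gave r from -0.08 to 0.09. With 3 libraries per group this cannot exclude that the numbers stand for a shared batch, and the labels do not say. The depth of the libraries is unknown, and for Gch1 and Mboat2 low levels and rounding limit what can be seen.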
